A study of Mus musculus with 20 samples.

Results

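Ly6a, Ly6c1, Ly6d, Ly6e, Ly6f and Ly6g, 6 genes of the Ly6 family of small surface proteins, were followed together with Plac8 in mice that lack, by their label, the interferon-induced GTPase Irgm1. The genes were chosen by name: every non-control probe that the scanner files assign to one of the 7 genes was taken, which gave 9 probes of 39429, and 7 of 24124 named genes. Ly6c1 and Plac8 had 2 probes each and the other genes 1 each. RNA was hybridized to 20 single-colour Agilent microarrays, 1 per mouse and tissue. All mice were C57BL/6 and kept free of specific pathogens. Salivary gland came from 4 female Irgm1-/- mice aged 9 weeks and 4 female wild type mice aged 6 or 7 weeks. Small intestine (duodenum, whole tissue) and macrophages isolated from colon came from 3 Irgm1-/- mice (2 males and 1 female) and 3 female wild type mice, aged 6 or 8 weeks in both genotypes. Animal numbers in the files tie both gut preparations to the same 6 mice. The study asked how the genotypes differ in each tissue, and for these genes the question was whether they change with interferon-induced genes or with markers of the cells that carry them.

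Ly6 proteins are small, cysteine-rich proteins, most of which are held on the outer cell membrane by a lipid anchor. Ly6a, known as Sca-1, marks blood stem cells and is also made by endothelium and by activated lymphocytes; Ly6c1 belongs to the Ly6C antigen of inflammatory monocytes, memory T cells and endothelium; and Ly6g marks neutrophils. Ly6e affects the entry of several viruses, Ly6d marks early B cell progenitors and stratified epithelium, and Plac8 encodes an unrelated cysteine-rich protein found in gut epithelium and in immune cells. Interferons are known to raise Ly6a, Ly6c1 and Ly6e in mouse cells, so a change in any of these transcripts can accompany either a change in cell content or an interferon response.

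The probes are shown because each reads only 60 bases, and because the paired probes of Ly6c1 and Plac8 read different stretches of the same gene. Sequences are from the scanner files, 5′ to 3′. Capitals mark the 50 bases of a Plac8 probe that are also the first 50 bases of the transcript in the RefSeq start window (GRCm38.p6), so this probe reads the 5′ end.
Ly6a: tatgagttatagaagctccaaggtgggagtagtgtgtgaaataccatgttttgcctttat
Ly6c1 main probe: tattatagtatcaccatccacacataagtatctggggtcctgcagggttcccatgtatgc
Ly6c1 other probe: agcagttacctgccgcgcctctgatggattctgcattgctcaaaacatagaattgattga
Ly6g: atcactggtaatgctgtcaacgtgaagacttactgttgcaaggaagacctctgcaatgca
Ly6e: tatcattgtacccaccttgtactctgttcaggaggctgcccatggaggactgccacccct
Ly6d: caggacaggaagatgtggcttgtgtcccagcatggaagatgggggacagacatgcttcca
Ly6f: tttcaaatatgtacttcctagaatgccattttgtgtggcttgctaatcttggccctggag
Plac8 main probe: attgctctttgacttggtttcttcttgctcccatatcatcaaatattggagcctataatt
Plac8 other probe: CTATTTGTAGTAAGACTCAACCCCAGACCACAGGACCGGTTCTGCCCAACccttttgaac
The genes of the Ly6 family are close copies. No probe of another gene on the array matched any of these probes, base for base without gaps, at more than 39 of 60 positions. That closest match was between the Ly6g probe and a probe for an unnamed transcript. Probes were compared only with probes, which can read different stretches of each transcript, so this cannot show which transcripts bind them. Whether transcripts of other Ly6 relatives bind these probes, that of Ly6g included, was not tested. Ly6c2, the near-identical neighbour of Ly6c1, has no probe under its own name here, and whether its transcript also binds the Ly6c1 probes was not tested.

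Levels below are log2 of the processed signal minus log2 of a 75th percentile of the same array. For salivary gland that percentile covers the 9555 probes well above background on all 8 arrays, and it was 10262.7, 3846.5, 4071.5 and 1619.8 in Irgm1-/- glands, against 3792.4, 3161.4, 1839.8 and 1472.1 in wild type. For the other tissues it covers all probes, and in small intestine the Irgm1-/- arrays were all brighter (4689.5, 3867.9 and 4533.6) than the wild type arrays (2321.5, 3204.4 and 2763.2). The Irgm1 transcript had a higher mean in the mice labelled Irgm1-/-, by 2.64 on the log2 scale in salivary gland (adjusted p = 0.000432, n = 4 per group, limma), by 1.16 in small intestine (adjusted p = 0.0396) and by 0.88 in macrophages, where it did not pass (adjusted p = 0.27). This level goes against the label. Which part of the gene was deleted is not stated in the labels, and a probe that lies elsewhere is no check, so directions below follow the label. Age ran with genotype in salivary gland and cannot be told apart from it. In the other tissues the males were all Irgm1-/-, and only 1 Irgm1-/- mouse was female. Sex can therefore be told apart from genotype only weakly there, and it served as a covariate in an alternative. The number of arrays limits the precision, and n is 4 per group in salivary gland and 3 per group elsewhere.

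In salivary gland, Ly6a, Ly6c1, Ly6g, Plac8, Ly6e and Ly6d were all higher in the mice labelled Irgm1-/-, by 0.84 to 3.36 on the log2 scale. These were 6 of the 6 genes that could be tested, of 7 in all, at an adjusted p under 0.05 (limma over 9724 genes, Benjamini-Hochberg). Across all genes 2.61% passed in that direction, and 11.2% had groups that did not overlap, as these 6 did. The median log2 fold change was 2.65 for the 6 genes (2.12 with Ly6g at the bound given below) and 0.055 for all genes tested. Ly6g entered the test only through the Irgm1-/- arrays, where it was high, and so had to differ; of the 5 genes detected on all 8 arrays, 5 passed. Whole tissue was measured, so more cells of a type and more RNA per cell cannot be told apart.

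Ly6a stood at log2 levels of 1.97, 1.70, 1.04 and 1.16 in the Irgm1-/- glands, against -1.11, -1.30, -1.22 and -1.58 in the wild type glands. Every Irgm1-/- gland lay above every wild type gland, with a gap wider than the spread inside either group. The log2 fold change was 2.77 (SE 0.22, adjusted p = 0.000303 by limma, n = 4 per group). Within the 2 slides that held both genotypes it was 3.04 and 2.50.

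Ly6c1 on its main probe gave 4.34, 3.89, 3.35 and 3.39 in Irgm1-/- glands, against 1.30, 1.29, 1.25 and 1.06 in wild type. The Irgm1-/- values had an SD of 0.468, while those of wild type had an SD of 0.112. The log2 fold change was 2.52 (SE 0.22, adjusted p = 0.000404 by limma). Its other probe read 0.78, 0.40, -0.47 and -0.04 in Irgm1-/- glands, against -1.38, -1.52, -1.30 and -1.07 in wild type, a difference of 1.48 (adjusted p = 0.0187 when every probe was fitted on its own by limma). Both probes separated the genotypes, and the main probe did so by the larger amount.

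Ly6g, the neutrophil antigen, was well above background on 4 of 4 Irgm1-/- glands and on 0 of 4 wild type glands. Its log2 levels were -1.86, -2.61, -3.62 and -3.20 in Irgm1-/-, against -5.92, -6.47, -5.97 and -6.02 in wild type. The wild type values are therefore only a bound, and Ly6g was at least 3.29-fold higher in Irgm1-/- glands (adjusted p of the fit 0.00105, limma); this bound sets the Irgm1-/- mean against the dimmest detected signal of each wild type array, or the probe's own signal where that was higher. With normexp background correction the fitted log2 fold change was 1.59 (adjusted p = 0.0226), against 3.27 in the processed signal.

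Plac8 had the largest fitted log2 fold change of the 7 genes in this tissue. On its main probe it read 1.52, 0.88, 0.07 and 0.28 in Irgm1-/- glands, against -2.73, -2.65, -2.38 and -2.94 in wild type. The log2 fold change was 3.36 (SE 0.30, adjusted p = 0.000447, limma). The probe at the 5′ end of the transcript gave 1.28, 0.94, -0.45 and 0.08 in Irgm1-/- glands, against -2.63, -2.64, -2.31 and -2.68 in wild type, a difference of 3.03 (adjusted p = 0.00198 when every probe was fitted on its own). Both probes separated the genotypes. On Ly6a, Ly6c1, Ly6g and Plac8, Irgm1-/- replicates 1 and 2 were the higher pair, and these lay on the first slide.

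Ly6e, the virus entry factor, changed less and with less scatter. It read 4.52, 4.69, 4.49 and 4.35 in Irgm1-/- glands, against 3.46, 3.50, 3.02 and 3.24 in wild type, and no values overlapped. The log2 fold change was 1.21 (SE 0.14, adjusted p = 0.00188, limma). With each array scaled to its median instead, the adjusted p was 0.149 at a log2 fold change of 1.33.

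Ly6d, the epithelial and B-progenitor antigen, had the smallest called difference. It read 0.60, 0.19, 0.16 and -0.07 in Irgm1-/- glands, against -0.63, -0.63, -0.57 and -0.65 in wild type. The 4 wild type glands were almost equal (SD 0.037), and the log2 fold change was 0.84 (SE 0.15, adjusted p = 0.0177, limma). Its call ended in 8 of 21 alternatives, with adjusted p between 0.0108 and 0.589, among them leaving out Irgm1-/- replicate 2 (0.0696) or wild type replicate 1 (0.0536), 2 (0.0646) or 4 (0.0579). Ly6f, a family member of little-known function, was well above background on 1 of 4 Irgm1-/- glands and 0 of 4 wild type glands and was not tested there.

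**Figure D1:**
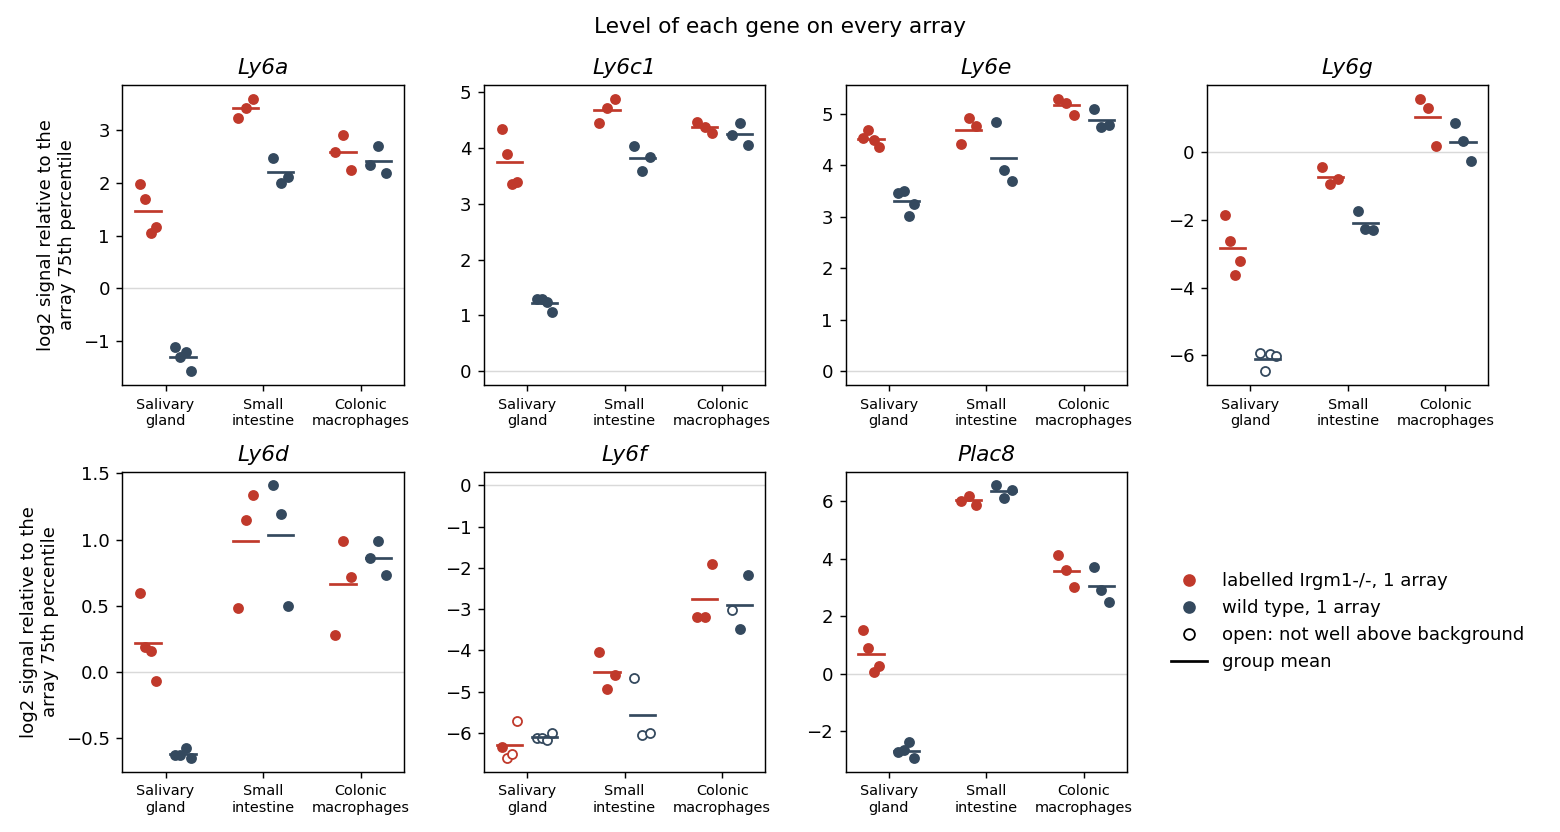
Level of the main probe of each gene on every array (y axis, log2 signal relative to the 75th percentile of the array), by tissue, with labelled Irgm1-/- arrays in red on the left and wild type arrays in blue on the right; lines are group means and open circles are spots not well above background. In salivary gland the 4 red points lie above the 4 blue points for every gene except Ly6f, and in macrophages the groups overlap for all 7 genes.

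In small intestine, none of the 7 genes passed the test (0 of 7, limma over 15397 genes, where 0.188% of genes passed and 1095 had an unadjusted p under 0.05). Ly6a, Ly6c1 and Ly6g still had groups that did not overlap, all 3 higher in Irgm1-/-, against 5.07% of all genes in that direction. The median log2 fold change of the 7 genes was 0.87 (0.55 with Ly6f at its bound), beside -0.094 over all genes. All Irgm1-/- arrays of this tissue were also brighter than the wild type arrays, and the part of brightness in these differences was not tested beyond the other scalings.

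Ly6a read 3.23, 3.43 and 3.60 in Irgm1-/- intestine, against 2.48, 1.99 and 2.12 in wild type. The log2 fold change was 1.23 (SE 0.19, adjusted p = 0.123, limma), with a 95% interval of 0.78 to 1.67, and within the 2 slides it was 0.75 and 1.47. It passed with quantile normalization (adjusted p = 0.0427), on the values of the authors' deposited table (0.0446) and without wild type replicate 1 (0.0464), within a range of 0.0427 to 0.8 over 20 alternatives. Wild type replicate 1 was the highest of its group for Ly6a, Ly6c1 and Ly6g.

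Ly6c1 read 4.45, 4.72 and 4.88 in Irgm1-/- intestine, against 4.04, 3.58 and 3.83 in wild type (log2 fold change 0.87, SE 0.19, adjusted p = 0.33, limma). Its other probe gave 2.83, 2.86 and 3.35 in Irgm1-/-, against 1.34, 1.87 and 2.48 in wild type, again with no overlap. Ly6g was detected on all arrays here, at -0.44, -0.94 and -0.79 in Irgm1-/- and -1.73, -2.26 and -2.30 in wild type. That made a log2 fold change of 1.38 (SE 0.22, adjusted p = 0.138, limma), which passed with the slide as a block (0.0355) and without wild type replicate 1 (0.0479), within 0.0355 to 0.914 over the alternatives.

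Plac8, which gut epithelium makes, did not pass in small intestine. It read 6.03, 6.20 and 5.89 in Irgm1-/- intestine, against 6.56, 6.11 and 6.38 in wild type, and the groups overlapped. The log2 fold change was -0.31 (SE 0.17, adjusted p = 0.663, limma), with a 95% interval of -0.72 to 0.10, and its sign turned in 2 of 20 alternatives. The probe at the 5′ end gave 5.66, 6.07 and 5.86 in Irgm1-/-, against 5.88, 6.10 and 6.16 in wild type.

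Ly6e read 4.40, 4.91 and 4.76 in Irgm1-/- intestine, against 4.83, 3.91 and 3.69 in wild type (log2 fold change 0.55, SE 0.32, adjusted p = 0.663, limma). Wild type replicate 1 lay within the Irgm1-/- values. Ly6d read 0.48, 1.15 and 1.34 in Irgm1-/-, against 1.41, 1.19 and 0.50 in wild type, a log2 fold change of -0.04 (adjusted p = 0.961), whose sign turned in 7 of 20 alternatives. Ly6f was well above background on 3 of 3 Irgm1-/- arrays (-4.05, -4.94 and -4.59) and 0 of 3 wild type arrays (-4.67, -6.05 and -6.00), at least 1.23-fold higher, and its fit did not pass (adjusted p = 0.663); with normexp background correction its sign turned.

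In colonic macrophages none of the 7 genes passed either (0 of 7, limma over 17023 genes, where 0.229% of genes passed and 2024 had an unadjusted p under 0.05), and the genotypes overlapped for all 7, while 7.62% of all genes had non-overlapping groups higher in Irgm1-/-. The median log2 fold change was 0.173 for the 7 genes and 0.092 over all genes. Ly6a read 2.59, 2.90 and 2.25 in Irgm1-/- macrophages, against 2.34, 2.70 and 2.18 in wild type (log2 fold change 0.17, 95% interval -0.47 to 0.81, adjusted p = 0.902, limma).

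Ly6c1, the Ly6C antigen gene, read 4.46, 4.38 and 4.26 in Irgm1-/- macrophages, against 4.23, 4.45 and 4.05 in wild type (log2 fold change 0.12, 95% interval -0.43 to 0.68, adjusted p = 0.922, limma). Its other probe had 2.10, 3.23 and 3.28 in Irgm1-/-, against 3.38, 3.07 and 3.41 in wild type, and the groups overlapped again. The intervals of Ly6a and Ly6c1 lie wholly below their fold changes in salivary gland.

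Ly6g read 1.59, 1.32 and 0.19 in Irgm1-/- macrophages, against 0.86, 0.34 and -0.24 in wild type (log2 fold change 0.71, SE 0.43, adjusted p = 0.627, limma). Plac8 read 4.12, 3.61 and 3.03 in Irgm1-/-, against 3.73, 2.93 and 2.50 in wild type (log2 fold change 0.53, SE 0.40, adjusted p = 0.722). In both genes mouse number 1 was the highest and mouse number 3 the lowest of each genotype. With the mouse number as a block, the adjusted p of Ly6g was 0.0894. With sex as a covariate the signs of Ly6a, Ly6g and Plac8 turned, and the sign of Ly6c1 turned with the mean of its 2 probes.

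Ly6e read 5.29, 5.20 and 4.98 in Irgm1-/- macrophages, against 5.09, 4.73 and 4.78 in wild type (log2 fold change 0.29, SE 0.25, adjusted p = 0.769, limma). Ly6d read 0.28, 0.99 and 0.72 in Irgm1-/-, against 0.86, 0.99 and 0.73 in wild type (log2 fold change -0.20, adjusted p = 0.879). Ly6f, near background, read -3.19, -3.19 and -1.91 in Irgm1-/-, against -3.03, -3.47 and -2.17 in wild type (log2 fold change 0.13, adjusted p = 0.961), and wild type replicate 1 was not well above background. The groups of all 3 genes overlapped.

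**Figure D2:**
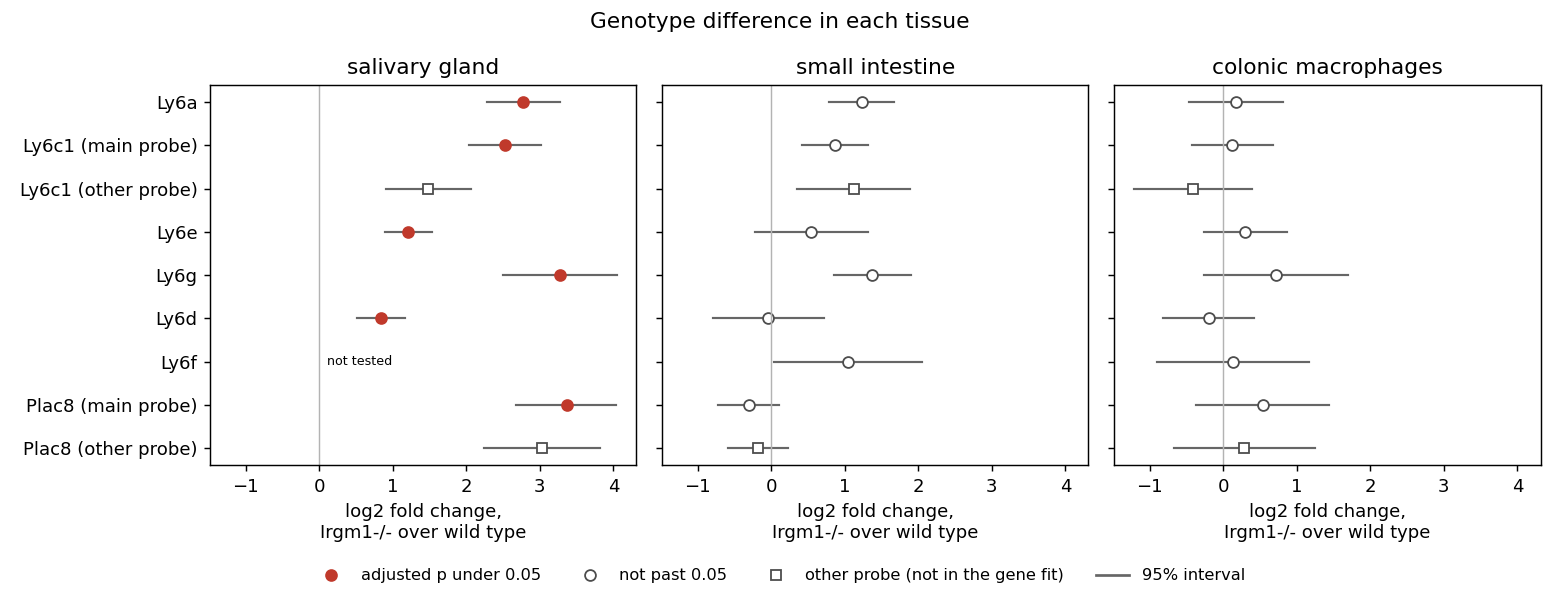
Log2 fold change of Irgm1-/- over wild type (x axis) for the 9 probes in each tissue, with 95% intervals from limma; filled circles are genes past an adjusted p of 0.05, open circles are genes that did not pass, and squares are the other probes of Ly6c1 and Plac8. The fold changes of Ly6a, Ly6c1, Ly6g and Plac8 lie above 2 in salivary gland, where that of Ly6g rests on wild type levels below background.

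The difference between tissues was itself tested, as an interaction in 1 fit of the 20 arrays. Against macrophages, the genotype difference in salivary gland was larger by 2.60 for Ly6a (SE 0.35, adjusted p = 0.00051, limma), by 2.40 for Ly6c1 (SE 0.32, adjusted p = 0.00051), by 2.83 for Plac8 (SE 0.49, adjusted p = 0.00253) and by 2.56 for Ly6g (SE 0.55, adjusted p = 0.0105). These are 4 of 7 genes, beside 4.33% of all genes in that direction. The Ly6g value uses wild type salivary gland levels below background, and with normexp background correction it was 0.86 (adjusted p = 0.562).

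Against small intestine, the salivary gland difference was larger by 3.67 for Plac8 (SE 0.49, adjusted p = 0.00135, limma) and by 1.65 for Ly6c1 (SE 0.32, adjusted p = 0.0352), which is 2 of 7 genes beside 0.273% of all genes. Plac8 kept its call in all 17 alternatives. The Ly6c1 call ended in 13 of 17, with adjusted p between 0.0174 and 0.196: with the percentile over probes detected on all 20 arrays (0.0891), with no filter (0.051), with normexp (0.196), and without any single array of the 2 tissues (0.0615 to 0.157) other than Irgm1-/- gland replicates 1, 3 and 4 and wild type intestine replicate 2. Ly6a differed by 1.54 (SE 0.35, adjusted p = 0.0903) and passed without Irgm1-/- gland replicate 4 (0.0452). Between small intestine and macrophages 0 of 7 genes passed, beside 0.624% of all genes in either direction; the values for Ly6a and Ly6c1 were 1.05 (adjusted p = 0.227) and 0.74 (adjusted p = 0.37). This fit takes the 2 gut preparations of a mouse as separate samples; with the difference between them taken within each of the 6 mice, 0 of 7 genes passed again (Ly6a adjusted p = 0.215, Ly6c1 adjusted p = 0.284, limma).

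Set side by side on a common scale (the 75th percentile over the 8448 probes detected on all 20 arrays), the genes differed in their order of tissues. The arrays of a tissue shared slides and a scan day with no other tissue, which cannot be told apart from tissue, so these levels are a description. Plac8 averaged 0.56 ± 0.64, 2.87 ± 0.09 and 1.09 ± 0.36 in Irgm1-/- salivary gland, small intestine and macrophages, against -2.79 ± 0.23, 2.96 ± 0.12 and 0.64 ± 0.50 in wild type (SD, n = 4, 3 and 3). In wild type it was thus highest in intestine and lowest in gland, and the gaps exceed the SDs.

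Ly6g followed another order. Its level was -2.95 ± 0.75, -3.89 ± 0.30 and -1.46 ± 0.57 in Irgm1-/- salivary gland, small intestine and macrophages, against -6.21 ± 0.26, -5.49 ± 0.14 and -2.09 ± 0.44 in wild type, with the wild type gland below background. Macrophage preparations were therefore the highest in both genotypes. Irgm1-/- gland and intestine did not stand apart by more than their SDs together.

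Ly6a stood at 1.35 ± 0.43, 0.25 ± 0.21 and 0.08 ± 0.27 in Irgm1-/- salivary gland, small intestine and macrophages, against -1.41 ± 0.19, -1.20 ± 0.08 and -0.01 ± 0.29 in wild type. In wild type it was highest in macrophages, and gland and intestine did not differ beyond their spread; in Irgm1-/- the gland was highest, and intestine and macrophages did not differ beyond theirs. Ly6c1 had 3.62 ± 0.45, 1.51 ± 0.23 and 1.86 ± 0.08 in the Irgm1-/- tissues, against 1.11 ± 0.10, 0.43 ± 0.11 and 1.83 ± 0.22 in wild type, so the wild type order of macrophages over gland over intestine was not that of Irgm1-/-.

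Ly6e and Ly6d were highest in salivary gland in both genotypes. Ly6e had 4.39 ± 0.14, 1.52 ± 0.23 and 2.66 ± 0.04 in Irgm1-/- salivary gland, small intestine and macrophages, against 3.20 ± 0.22, 0.75 ± 0.43 and 2.45 ± 0.09 in wild type. Ly6d had 0.10 ± 0.26, -2.18 ± 0.45 and -1.84 ± 0.49 in Irgm1-/-, against -0.73 ± 0.03, -2.36 ± 0.38 and -1.55 ± 0.16 in wild type, and its intestine and macrophage levels did not differ by more than their SDs together in Irgm1-/-. Ly6f was above background on every array of a group only in Irgm1-/- intestine (-7.70 ± 0.50) and Irgm1-/- macrophages (-5.26 ± 0.91). With the 75th percentile of all probes as the scale, 2 rather than 4 of the 7 genes were highest in wild type macrophages, so orders between tissues depend on the scale.

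**Figure D3:**
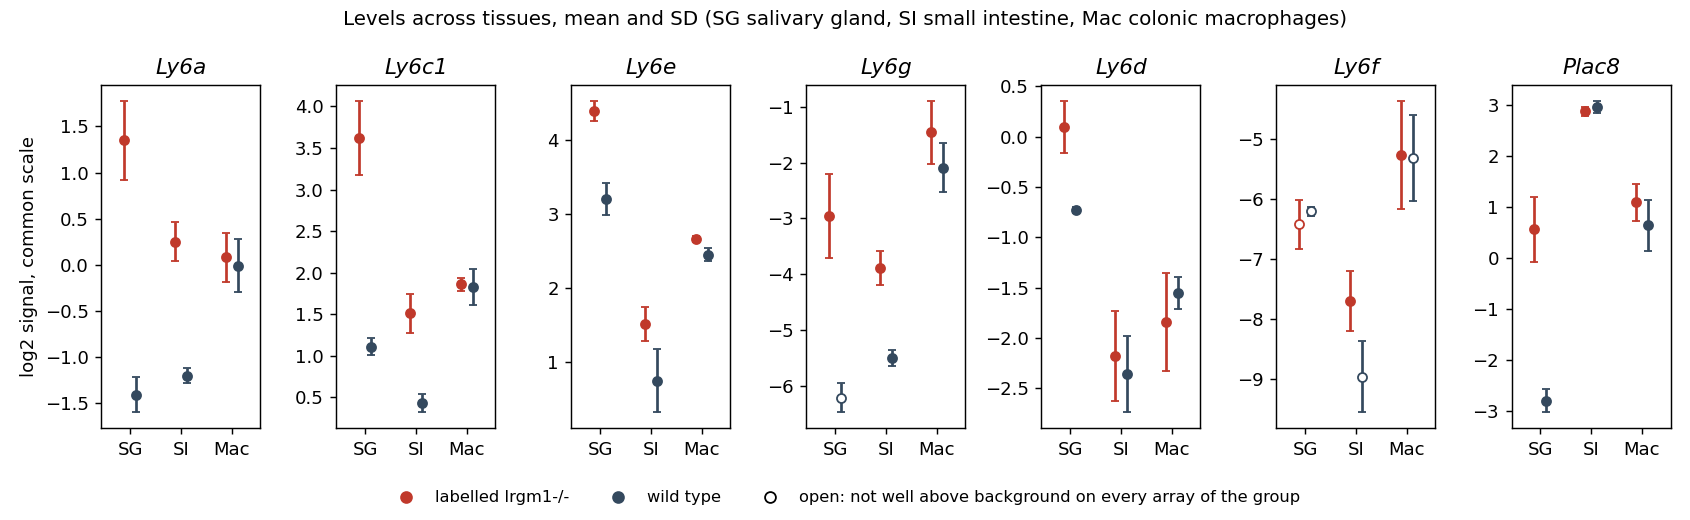
Mean and SD of each gene on the common scale (y axis, log2 signal) in salivary gland (SG), small intestine (SI) and colonic macrophages (Mac), labelled Irgm1-/- in red on the left and wild type in blue on the right; open points are groups with at least 1 array not well above background. Plac8 is near 2.9 in both genotypes of the intestine and at 0.56 in Irgm1-/- gland against -2.79 in wild type gland.

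The 6 Ly6 genes lie in a row of Ly6 relatives on mouse chromosome 15, while Plac8 lies on chromosome 5. Of 19 genes of the family on chromosome 15, 16 were on the array and 11 could be tested in salivary gland, and 6 of these passed, all of them higher in Irgm1-/-, beside 2.61% of all genes. Without Ly6g, which was detected in no wild type gland, 5 of 10 passed. Beside Ly6a, Ly6c1, Ly6d, Ly6e and Ly6g, the sixth was Gpihbp1 at the end of the row, a protein that carries lipoprotein lipase across the capillary wall, with a log2 fold change of 0.66 (SE 0.13, adjusted p = 0.0345, limma). Ly6i, the neighbour between Ly6e and Ly6a, had a log2 fold change of 0.46 (SE 0.25, adjusted p = 0.293), and Ly6k between Ly6d and Ly6e had 0.06 (adjusted p = 0.921).

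Over the wider family, Gpihbp1 was the only 1 of 12 tested relatives outside the 6 that passed in salivary gland, and the median of the 12 was -0.25 beside 0.055 for all genes. In small intestine 0 of 17 relatives passed (median 0.078) and in macrophages 0 of 25 (median 0.236). Ly6i had 0.17 and -0.14 in those tissues, with adjusted p of 0.741 and 0.946 by limma.

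**Figure D4:**
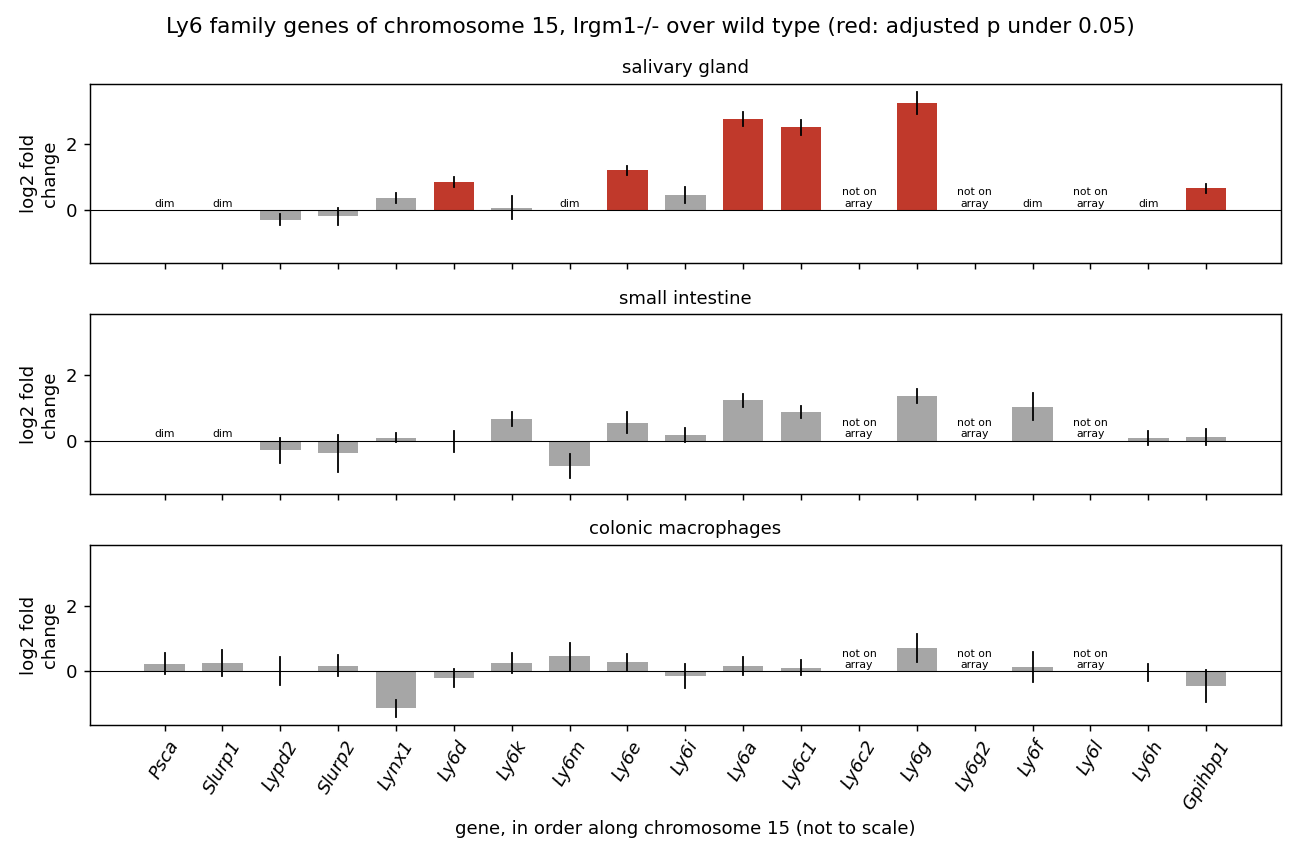
Log2 fold change of Irgm1-/- over wild type (y axis, bars with SE) for the Ly6 family genes in their order along chromosome 15, not to scale; red bars passed an adjusted p of 0.05, and genes without a bar were too dim to test or are not on the array. In salivary gland Ly6a, Ly6c1 and Ly6g (the last against wild type levels below background) stand above 2, while Ly6i and Ly6k lie under 0.5.

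Interferon-induced genes outside the family also rose, in salivary gland and in part in the other tissues. Of 16 listed, all 11 tested rose in salivary gland (median log2 fold change 3.80, or 3.66 with genes dim in wild type at their bounds), beside 2.61% of all genes in that direction. Oas2 and Irf7 were detected on no wild type gland, entered that test only through the Irgm1-/- arrays and so had to differ. Of the 9 genes detected in both genotypes, 9 rose. Among these, Rsad2, Ifit3 and Oas1a were detected on 1, 2 and 3 of 4 wild type glands and also needed the Irgm1-/- arrays to enter. Oasl2, Igtp, Isg15, Usp18, Gbp2 and Bst2, detected on 4 of 4 glands of each genotype, all rose. In small intestine 7 of 16 rose (median 1.65), beside 0.188% of all genes called in either direction, and in macrophages 1 of 14 (median 1.75), beside 0.229%. Oas2, a sensor enzyme of viral RNA, passed in all 3 tissues, at least 12.6-fold higher in salivary gland and by 3.40 and 2.59 on the log2 scale in small intestine and macrophages (adjusted p = 0.00875 and 0.0464, limma). The macrophage preparations thus had a median of 1.75 for the listed interferon genes and 0.173 for the 7 genes.

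Markers of neutrophils, monocytes and endothelium, cells on which these antigens are known, did not pass in salivary gland. Of 12 neutrophil markers, 2 could be tested and 0 passed: Elane had a log2 fold change of -0.35 (adjusted p = 0.381) and Csf3r -0.07 (adjusted p = 0.893, limma). A further 8, S100a8, S100a9, Mmp8, Cd177, Retnlg, Ngp, Mpo and Camp, were well above background on none of the 8 arrays. The summed level of the list ran from 1.14 to 1.90 in Irgm1-/- glands and from 1.11 to 2.13 in wild type glands. The remaining 2 were too dim to test: Ltf, the granule protein lactoferrin, was well above background on 3 of 4 Irgm1-/- glands and 0 of 4 wild type glands (mean log2 level -4.85 in Irgm1-/- and -6.08 in wild type), and Cxcr2, a chemokine receptor, on 1 of 4 Irgm1-/- glands and 0 of 4 wild type glands. Ltf detection thus ran with genotype as Ly6g detection did, and its part in the Ly6g difference was not tested.

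Of 10 classical monocyte markers, 5 could be tested and 0 passed (median log2 fold change -0.179), with Hp at 0.89 (adjusted p = 0.128) and Fn1 at 0.50 (adjusted p = 0.147, limma). Ccr2, their chemokine receptor, was well above background on no array, and the summed level was 1.66 to 2.05 in Irgm1-/- glands and 1.74 to 1.79 in wild type glands. Ms4a4c, the brightest of the list (mean log2 level 0.78 in Irgm1-/- and 0.96 in wild type), weighed most in that sum. Endothelial markers, of cells that carry Ly6a and Ly6c1, had 0 of 7 past the test and a median of 0.40. Among them Emcn had a log2 fold change of 0.97 (adjusted p = 0.0947), Robo4 one of 0.93 (adjusted p = 0.0813) and Egfl7 one of 0.80 (adjusted p = 0.0703, limma). The groups of Emcn, Robo4 and Egfl7 did not overlap, higher in Irgm1-/-, beside 11.2% of all genes. Vwf, Pecam1, Kdr and Plvap overlapped, with Pecam1 at -0.29 and Kdr at -0.26. The part of endothelium in the Ly6 differences was not tested. The summed level of the endothelial list was 1.36 to 1.62 in Irgm1-/- glands and 1.21 to 1.68 in wild type glands.

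Some markers of macrophages also rose in salivary gland. Of 8 tested, 4 passed, all higher in Irgm1-/-, beside 2.61% of all genes in that direction. They were the complement genes C1qa (log2 fold change 1.67, adjusted p = 0.0153), C1qc (1.55, adjusted p = 0.0142) and C1qb (1.32, adjusted p = 0.0396, limma) and the mannose receptor Mrc1 (0.89, adjusted p = 0.0356). Mrc1 was well above background on 3 of 4 Irgm1-/- glands and 1 of 4 wild type glands, and needed the Irgm1-/- arrays to enter the test. Cx3cr1 (0.82, adjusted p = 0.108), Cd68 (0.50, adjusted p = 0.71), Csf1r (0.35, adjusted p = 0.176) and Adgre1 (0.24, adjusted p = 0.487) did not pass. The summed level was 3.24 to 4.24 in Irgm1-/- glands and 2.46 to 3.54 in wild type glands, and Cd163 was well above background on no array. Their part in the Ly6 and Plac8 differences was not tested. Of the acinar markers, which define the gland, all 9 on the array were detected and 1 of 9 fell: Lpo, a secreted peroxidase, by 0.59 on the log2 scale (adjusted p = 0.0473).

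The other lists gave no calls in salivary gland: 0 of 3 T cell markers, 0 of 4 B and plasma cell markers, 0 of 7 plasmacytoid dendritic cell markers, 0 of 5 markers of stratified epithelium, where Ly6d is made, and 0 of 1 enterocyte marker. In small intestine no marker list had a member past the threshold, with medians of -0.021 for monocytes, 0.224 for neutrophils, 0.33 for endothelium, 0.418 for macrophages, -0.32 for T cells, -0.006 for B and plasma cells, -0.073 for plasmacytoid dendritic cells, 0.124 for stratified epithelium, -0.533 for acinar cells and -0.373 for enterocytes, whose 10 markers were all detected.

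In macrophages the 11 tested macrophage markers had a median of -1.231 and 0 passed, with a summed level of 2.72 to 3.69 in Irgm1-/- and 3.27 to 4.96 in wild type. Among all marker lists 2 genes passed there, both lower, beside 0.229% of all genes in either direction. The endothelial gene Egfl7 fell by 1.99 (adjusted p = 0.0249), and the amylase gene Amy1 fell by 5.23 (adjusted p = 0.00037, limma). Of the 11 tested endothelial markers, 1 had a positive log2 fold change, and their median was -1.03 beside 0.092 for all genes. Tie1 had a log2 fold change of -2.26 and did not pass (adjusted p = 0.0523, limma). The part of endothelium in the Ly6 levels of these preparations was not tested. Monocyte (median -0.413), neutrophil (0.128), T cell (0.309), B and plasma cell (0.763), plasmacytoid dendritic cell (-0.002), stratified epithelial (0.412) and enterocyte lists (-0.166) had 0 calls in these preparations. All 12 T cell, 12 B and plasma cell and 10 stratified epithelial markers were well above background on at least 1 of these arrays, as were all 12 macrophage markers.

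**Figure D5:**
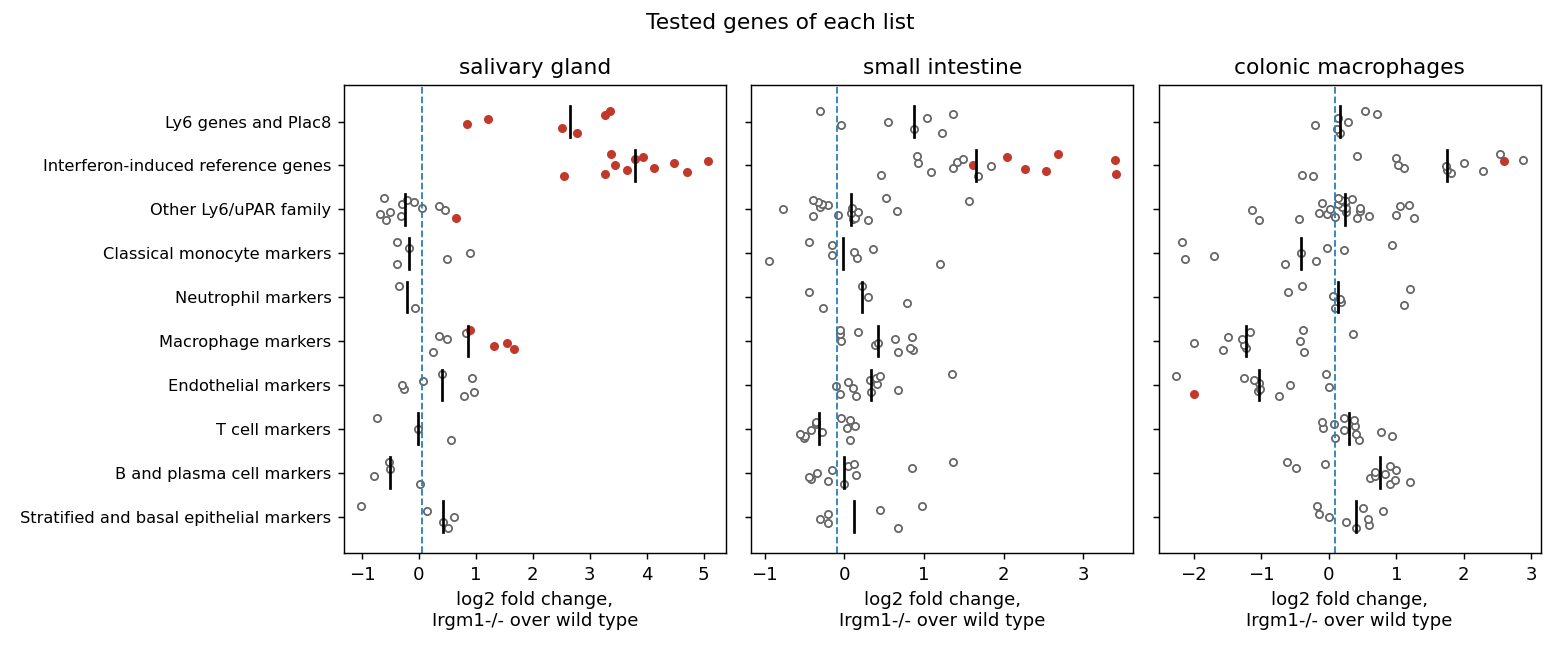
Log2 fold change of Irgm1-/- over wild type (x axis) for each tested gene of the Ly6 and Plac8 set, the interferon-induced list, the Ly6 relatives and marker lists (rows), by tissue. The acinar, plasmacytoid dendritic cell and enterocyte lists are not drawn. Filled points passed an adjusted p of 0.05, black lines are list medians and the dashed line is the median of all genes. In salivary gland the filled points lie in the rows of the Ly6 and Plac8 set, the interferon list, the macrophage markers and, for Gpihbp1 alone, the relatives.

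With the mean of each tissue removed, the levels of Ly6a and Ly6c1 ran together over the 20 arrays (r = 0.99), as did those of Ly6a and Ly6g (r = 0.96) and of Ly6g and Plac8 (r = 0.91). The arrays share genotype groups and scaling, so these values are descriptions. Ly6f stood apart, with r between -0.23 and 0.14 to the other 6, and was well above background on 9 of 20 arrays. Among 12333 other genes, those nearest to Ly6a were Trex1, a DNA exonuclease (r = 0.978), Rsad2, the antiviral enzyme viperin (r = 0.971), and H2-Q5 (r = 0.966). Nearest to Ly6c1 were Trex1 (r = 0.972), H2-T9 (r = 0.97) and H2-Q5 (r = 0.968), and nearest to Plac8 were complement factor B, Cfb (r = 0.988), and the class I antigen-presentation genes H2-K1 (r = 0.983) and H2-T23 (r = 0.979).

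The genes nearest to Ly6g were Tor3a (r = 0.964), Samd9l (r = 0.96) and Oas1a (r = 0.958), the last a synthetase of the signal that switches on RNase L. None of these is a neutrophil marker of the list, but only genes well above background on at least 10 arrays were candidates. The neutrophil markers S100a8, S100a9, Mmp8, Retnlg, Ngp, Mpo, Cxcr2 and Ltf fell short of that and could not be named. The part of neutrophils in the Ly6g levels was therefore not tested by this search. Ly6e was nearest to Rnf31, a subunit of a ubiquitin ligase (r = 0.931), Oas1f (r = 0.888) and Oas1a (r = 0.884). Ly6d was nearest to the integrin gene Itgb7 (r = 0.914), the adaptor gene Dok3 (r = 0.881) and Unc93b1, a chaperone of Toll-like receptors (r = 0.88). For Ly6f the nearest were Olfr576, Ush1g and Ftdc2, at r of 0.765, 0.752 and 0.752.

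RefSeq start windows (250 bases before to 50 after a transcript start, GRCm38.p6) were at hand for 4 of the 7 genes, 7 windows in all: Ly6c1, Ly6g, Ly6f and Plac8. They were searched on both strands for the core of the interferon-stimulated response element (GAAA, 2 bases of any kind, GAAA) and for the gamma-activated site (TTCNNNGAA), which can overlap. Neither had a match in any of the 7 windows, while 3.4% and 8.3% of all 32851 windows hold them; these letters are simply not in these windows. The windows of the 3 Ly6 genes share a run of 18 bases, found in 4 of all windows, each of them a window of Ly6c1, Ly6g or Ly6f, and in 0 windows of Plac8. It is shown in capitals, with 40 bases either side, because Ly6c1 and Ly6g moved together in salivary gland while Ly6f was not measurable there. The stretches are chr15:75048881-75048978 on the minus strand for Ly6c1, chr15:75155164-75155261 on the plus strand for Ly6g and chr15:75268253-75268350 on the plus strand for Ly6f, written in the direction of transcription.
Ly6c1: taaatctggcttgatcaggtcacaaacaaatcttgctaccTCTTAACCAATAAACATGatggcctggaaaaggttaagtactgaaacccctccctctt
Ly6g: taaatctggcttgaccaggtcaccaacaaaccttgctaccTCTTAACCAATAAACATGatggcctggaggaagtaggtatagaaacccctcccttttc
Ly6f: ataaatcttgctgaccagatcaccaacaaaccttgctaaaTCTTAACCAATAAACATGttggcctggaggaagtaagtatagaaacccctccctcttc
The run begins 101, 57 and 128 bases before the start in Ly6c1, Ly6g and Ly6f. Aligned without gaps on the run, Ly6g matched Ly6f at 83 and Ly6c1 at 77 of 98 bases. A shared run is a description of these letters, and what binds there was not measured.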

How the data were processed

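Per the labels, 5 µg of total RNA per sample was labelled with Cy5 for single-colour arrays. Per the file headers, these were of Agilent design 026655 (annotation build mm9), read with Feature Extraction 11.5.1.1. Each deposited scanner file gives linear intensity values after the software's own background subtraction, with no scaling between arrays; flags of 0 or 1 per spot give outliers, saturation and detection. The authors' deposited table also holds intensity values, made by steps that the sources do not name; within a tissue 100% of ranks held equal values within 0.1%. It served as an alternative.

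Outlier spots (0.434%) were left out, 0 spots were saturated, log2 intensity was averaged per probe, and the 75th percentile of each array was subtracted, taken over all probes or, in salivary gland, where under 50% of probes were detected on every array, over probes detected on all its arrays. RefSeq names (GRCm38.p6) matched 27502 probes by accession; the other 11927 keep the deposited name. The probe with the highest mean stood for its gene, tested if well above background on at least n arrays, n being the size of the smaller group. Genotypes were compared with limma 3.58.1 in R 4.3.3 (lmFit and eBayes, tables read with data.table, release 1.17.8), Benjamini-Hochberg over all genes and a threshold of 0.05; fold changes are Irgm1-/- over wild type. Tissues were compared as an interaction in 1 fit of 20 arrays. The script was tested on simulated data.

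The 7 genes, the 12 other gene lists and the tests were chosen with earlier results of these data known. Named genes were the 7, Ly6 relatives past the threshold with Ly6i and Ly6c2, up to 3 called genes of each other list (2 with their values if none was called), and the 3 nearest genes by correlation. Ly6k, Mrc1, Ms4a4c, further macrophage and endothelial markers, and the genes named for their detection alone were named after their values were seen.

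The labels number the mice of each group. With group means removed, the correlation between mice of 1 number was 0.20, 0.25 and 0.39 in small intestine. Macrophages gave 0.50, 0.29 and 0.66, and in both gut tissues the numbers were taken to pair the mice. Salivary gland gave 0.20, -0.11, -0.52 and 0.43. The number served as a block in an alternative.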

Additional observations from a re-analysis of the deposited data

Results flagged for a closer look

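The genotype difference itself differed between tissues for 4 of the 7 genes, by an interaction test in limma over all genes. Between salivary gland and macrophages the difference of log2 fold changes was 2.60 for Ly6a, 2.40 for Ly6c1, 2.56 for Ly6g and 2.83 for Plac8. The Ly6g value rests on wild type glands below background, so its size is not settled, and it did not pass with normexp background correction (0.86, adjusted p = 0.562). Between salivary gland and small intestine it was 3.67 for Plac8 and 1.65 for Ly6c1, and the Ly6c1 call ended in 13 of 17 alternatives (adjusted p 0.0174 to 0.196). Each tissue had its own slides and scan day and the groups differ in age or sex between tissues, which cannot be told apart from tissue. No array stood apart by Dixon's test in any of the 14 sets of 4 salivary gland values (7 genes in each genotype).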

How the results depend on the processing

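Ly6a, Ly6c1 and Plac8 in salivary gland kept their direction and their call in all 21 alternatives run, and the lowest log2 fold change was 2.60 for Ly6a, 2.003 for Ly6c1 and 3.08 for Plac8. Ly6g, detected in no wild type gland, had values of 1.59 to 3.65, which say nothing of stability. In small intestine the count of genes past the threshold, 0 as reported, was 1 with quantile normalization, 1 with the slide as a block and 1 with the authors' deposited table, and leaving out single arrays gave 0 to 2. The count for salivary gland minus small intestine, 2 as reported, was 1 with the percentile over probes detected on all 20 arrays, 1 with no filter on dim probes and 1 with normexp, and leaving out single arrays gave 1 to 2. Genes highest in wild type macrophages numbered 2 with the percentile of all probes, against 4. With the mouse number as a replicate block 6 genes passed in salivary gland, 0 in small intestine and 0 in macrophages, and no call changed; in salivary gland the numbers did not pair the mice. Signs turned only in values that did not pass. With normexp Ly6f was -0.214 in small intestine, -0.146 in macrophages, 0.003 for salivary gland minus small intestine and -0.068 for small intestine minus macrophages. In small intestine Ly6d was 0.072 with the other percentile, 0.037 with quantile normalization, 0.034 with the authors' deposited table and 0.307 with sex as a covariate, and Plac8 was 0.075 and 0.074 with quantile normalization and the authors' deposited table. In macrophages sex as a covariate gave Ly6a -0.16, Ly6g -0.132 and Plac8 -0.023, and the mean of all probes gave Ly6c1 -0.147. Without single arrays Ly6d in small intestine ran from -0.305 to 0.215, Ly6f in macrophages from -0.296 to 0.49, Ly6d for small intestine minus macrophages from -0.108 to 0.412 and Ly6f for salivary gland minus macrophages from -0.693 to 0.093. The causes of these changes were not tested. Alternatives fitting every probe on its own were chosen after seeing the data. With 3 or 4 arrays per group, and signals of Ly6g and Ly6f near background, small differences were not measurable.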
